A study of Homo sapiens with 12 samples.

Results

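The immediate early genes EGR1, EGR2, EGR3, FOS, FOSL1, JUN, JUNB, JUND, IER2, and IER3 were followed across 12 dual-color arrays. Their probes were found through the RefSeq accession of each array feature. Of these 10 genes, 9 were found, on 12 of 41000 probes and 21 of 43376 features, out of 17237 named genes in all. JUN had 10 spots of 1 probe, and FOSL1, JUNB, and IER2 had 2 probes each. JUND was matched to no probe and was not measured here. The cells were Ls174T, a human colorectal cancer line with constitutively active Wnt signaling, and HEK293T, a human embryonic kidney line in which the Wnt pathway is intact and can be switched on. All were transfected with 15 nM siRNA pools for 72 h. In Ls174T cells, the groups were si-P300, si-MLLT10, si-control, and si-BRG1, with 1 array each against universal human reference RNA, and si-b-catenin, which was set directly against si-control on 2 arrays with the dyes exchanged. In HEK293T cells, 1 array each held si-control cells given control medium, si-control cells given Wnt3A conditioned medium, and cells with si-BRG1, si-DOT1L, si-MLLT10, or si-P300 given Wnt3A conditioned medium, all for 9 h and all against the reference RNA. Each condition is thus 1 biological sample of 1 cell line, so no test between conditions was possible and no p-value is given. The errors below are those of the scanner program's error model for 1 hybridization, and they do not include the spread between cultures.

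Immediate early genes are transcribed within minutes of a growth factor or stress signal, without new protein synthesis, and most of their mRNAs decay quickly. EGR1, EGR2, and EGR3 encode zinc finger transcription factors. FOS, FOSL1, JUN, JUNB, and JUND encode basic leucine zipper proteins that pair into the AP-1 transcription factor, and in the intestine AP-1 and β-catenin/TCF are known to meet at shared targets such as JUN itself. IER2 and IER3 encode small nuclear or stress-related proteins that are induced alongside them. Much of their induction runs through the MAPK cascade, which acts on serum response factor bound at CArG boxes and on CREB or AP-1 proteins bound at TGACG-type elements. The coactivators depleted here are DOT1L, a histone H3K79 methyltransferase, its partner MLLT10/AF10, BRG1, the SWI/SNF ATPase, and p300, a histone acetyltransferase.

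The promoters of EGR1, EGR2, FOS, and JUN are shown because these 4 genes carry the contrasts described below: EGR1 and FOS were higher with Wnt3A, EGR2 parted from EGR1 after si-BRG1, and JUN ran the other way. Each is 300 bases from RefSeq on GRCh38.p14, from 250 bases before the transcription start to 50 bases from it on, written 5′ to 3′ on the gene's strand. EGR1 lies at chr5:138465229-138465528 on the plus strand, EGR2 at chr10:62816317-62816616 on the minus strand (of 3 EGR2 windows, the one chosen for its CArG box), FOS at chr14:75278578-75278877 on the plus strand, and JUN at chr1:58783998-58784297 on the minus strand. Capitals mark CArG boxes, TGACG or its reverse complement, TGACNTCA, and TATAAA, searched on both strands except TATAAA.
EGR1: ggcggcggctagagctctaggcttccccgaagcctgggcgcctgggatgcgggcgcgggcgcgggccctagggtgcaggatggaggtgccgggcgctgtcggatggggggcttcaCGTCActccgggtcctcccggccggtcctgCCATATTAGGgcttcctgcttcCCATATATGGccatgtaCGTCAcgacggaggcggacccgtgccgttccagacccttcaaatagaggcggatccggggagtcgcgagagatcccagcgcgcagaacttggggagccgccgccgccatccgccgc
EGR2: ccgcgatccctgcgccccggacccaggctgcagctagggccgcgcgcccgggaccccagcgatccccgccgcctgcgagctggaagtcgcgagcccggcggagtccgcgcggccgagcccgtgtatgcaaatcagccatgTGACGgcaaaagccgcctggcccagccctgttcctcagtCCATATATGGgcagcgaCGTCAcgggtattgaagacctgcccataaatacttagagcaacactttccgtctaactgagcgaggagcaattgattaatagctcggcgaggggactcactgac
FOS: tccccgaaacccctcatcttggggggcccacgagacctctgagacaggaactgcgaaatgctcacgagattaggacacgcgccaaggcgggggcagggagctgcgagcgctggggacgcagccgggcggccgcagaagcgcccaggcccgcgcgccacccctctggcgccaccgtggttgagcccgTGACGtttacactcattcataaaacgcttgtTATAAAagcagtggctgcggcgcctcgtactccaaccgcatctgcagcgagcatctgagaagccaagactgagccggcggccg
JUN: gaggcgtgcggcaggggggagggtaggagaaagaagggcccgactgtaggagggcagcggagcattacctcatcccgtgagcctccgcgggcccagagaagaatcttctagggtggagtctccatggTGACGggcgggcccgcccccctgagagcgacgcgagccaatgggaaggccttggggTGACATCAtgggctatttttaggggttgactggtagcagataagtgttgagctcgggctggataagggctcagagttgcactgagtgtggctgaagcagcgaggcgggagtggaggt

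The EGR1 window held a pair of CArG boxes, the nearer beginning 83 bases before the start, and the EGR2 window held 1 at 71 bases before the start. CArG boxes were in 2 of the 9 windows listed for these genes and in 1.29% of the 35116 promoters of the same length. Those 9 windows belonged to 7 genes, with JUND among them and several windows for EGR2. EGR3, FOSL1, and IER3 had no window and were not searched. The JUN window held TGACATCA 67 bases before the start, the kind of element at which JUN/ATF2 dimers are known to bind, and TGACNTCA occurred in 7.72% of promoters. TGACG was in 7 of the 9 promoter windows listed for these genes, against 24.6% of promoters, and it overlaps TGACNTCA where N is G. GCGNGGGCG, the site that EGR proteins themselves bind, was in the EGR1 window and in an EGR2 window other than the one printed, and in 9.43% of promoters. FOS held TATAAA 33 bases before the start, which 7.33% of promoters held. CTTTGA, a core of TCF sites, was found in the JUNB window alone among the 7 genes searched and in 12.9% of promoters. These matches describe letters in a window, and no binding was measured here. Bases more than 250 before the start were not searched, so a motif absent from a window may lie further upstream.

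The siRNA targets checked the labels. On the log2 scale, CTNNB1, which encodes β-catenin, was lower by -2.60 after si-b-catenin. MLLT10 was at -1.42 in Ls174T and -1.76 in HEK293T cells, SMARCA4, which encodes BRG1, at -2.42 and -3.97, EP300 at -0.96 and -2.66, and DOT1L at -1.07 in HEK293T cells. The EP300 value in Ls174T cells, with a program error of 0.44, alone fell short of the threshold used in its line, 2-fold. Of 10 colorectal markers, 8 were higher on every Ls174T reference array than on every HEK293T array, and of the 4 measured HEK293T markers, all 4 were higher on every HEK293T array. Each array had 18104 to 31011 well-measured features, those whose median signal exceeded 2-fold the local background in either channel. The 12 arrays lay on 5 slides. The si-control Wnt3A array was alone on its slide, so for that array condition and slide cannot be told apart.

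On the deposited ratios, HEK293T cells given Wnt3A for 9 h had more RNA of all 3 EGR genes and of FOS, FOSL1, JUNB, and IER3 than in control medium. Past the 1.5-fold threshold that the study used in HEK293T cells, 7 of the 9 measured genes were higher, against 3.79% of the 13735 genes compared, and 0 were lower, against 1.86%. JUN was the exception in direction. In such bulk RNA, fewer cells with a transcript and less of it per cell cannot be told apart. The median difference was 0.92 on the log2 scale over the 9 genes and 0.01 over all genes. Of 5 colorectal markers measured in the same comparison, 3 were also past 1.5-fold higher and 0 lower, with a median of 0.59. Whether the rise was particular to the immediate early genes was not tested. Under normexp background correction with local backgrounds used as scanned, EGR3, FOS, FOSL1, and IER3 were lower with Wnt3A, and EGR1 was higher by only 0.55 and EGR2 by 0.58. When the backgrounds that the program marked as outliers were replaced first, those 6 genes were all higher and EGR1 was at 2.52, but EGR3 at 0.32 and FOSL1 at 0.54 no longer passed the threshold.

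EGR1, the founding member of its family, had processed sample signals of 400 in control medium, 2396 with Wnt3A, 813 with si-MLLT10 and Wnt3A, 2285 with si-DOT1L and Wnt3A, 697 with si-BRG1 and Wnt3A, and 1034 with si-P300 and Wnt3A. The reference channel of the same spot stayed between 8860 and 10924. In log2 of sample over reference, the levels ran from -4.63 in control medium through -3.97 with si-BRG1, -3.51 with si-MLLT10, -3.13 with si-P300, and -2.17 with si-DOT1L to -1.89 in si-control with Wnt3A. The si-DOT1L and si-control levels with Wnt3A were within the program error of each other, as were si-BRG1 and si-MLLT10, and si-MLLT10 and si-P300. The Wnt3A difference of EGR1 was 2.74 ± 0.55 (log2, program error), or 6.68-fold.

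EGR2, best known from myelinating Schwann cells and hindbrain patterning, had levels of 0.02 in control medium, 0.23 with si-MLLT10, 0.91 with si-P300, 0.99 with si-DOT1L, 1.11 in si-control with Wnt3A, and 2.02 with si-BRG1. Its si-BRG1 level stood above the other 5 by more than the error, and si-MLLT10 lay within the error of control medium. The Wnt3A difference of EGR2 was 1.09 ± 0.32, or 2.13-fold. EGR3, often induced downstream of EGR1, was dim. Its sample channel was not well above background in control medium or with si-MLLT10, with processed signals of 14.9 and 33.5, and it read 72.9 in si-control with Wnt3A. On the program's background correction, EGR3 was therefore at least 2.37-fold higher with Wnt3A, against a measured difference of 1.72 ± 0.46 on the log2 scale. Such bounds set the brighter sample channel, after A-quantile scaling between arrays, against the faintest signal called above background on the dimmer array. Where the dim probe's own signal was higher, that signal was used instead, and the fold is then a measured ratio and no bound. Since each sample was in Cy3, the bounds are open to dye bias. They also rest on the program's background correction, and under both normexp settings the EGR3 difference with Wnt3A was below its bound of 2.37-fold.

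**Figure D1:**
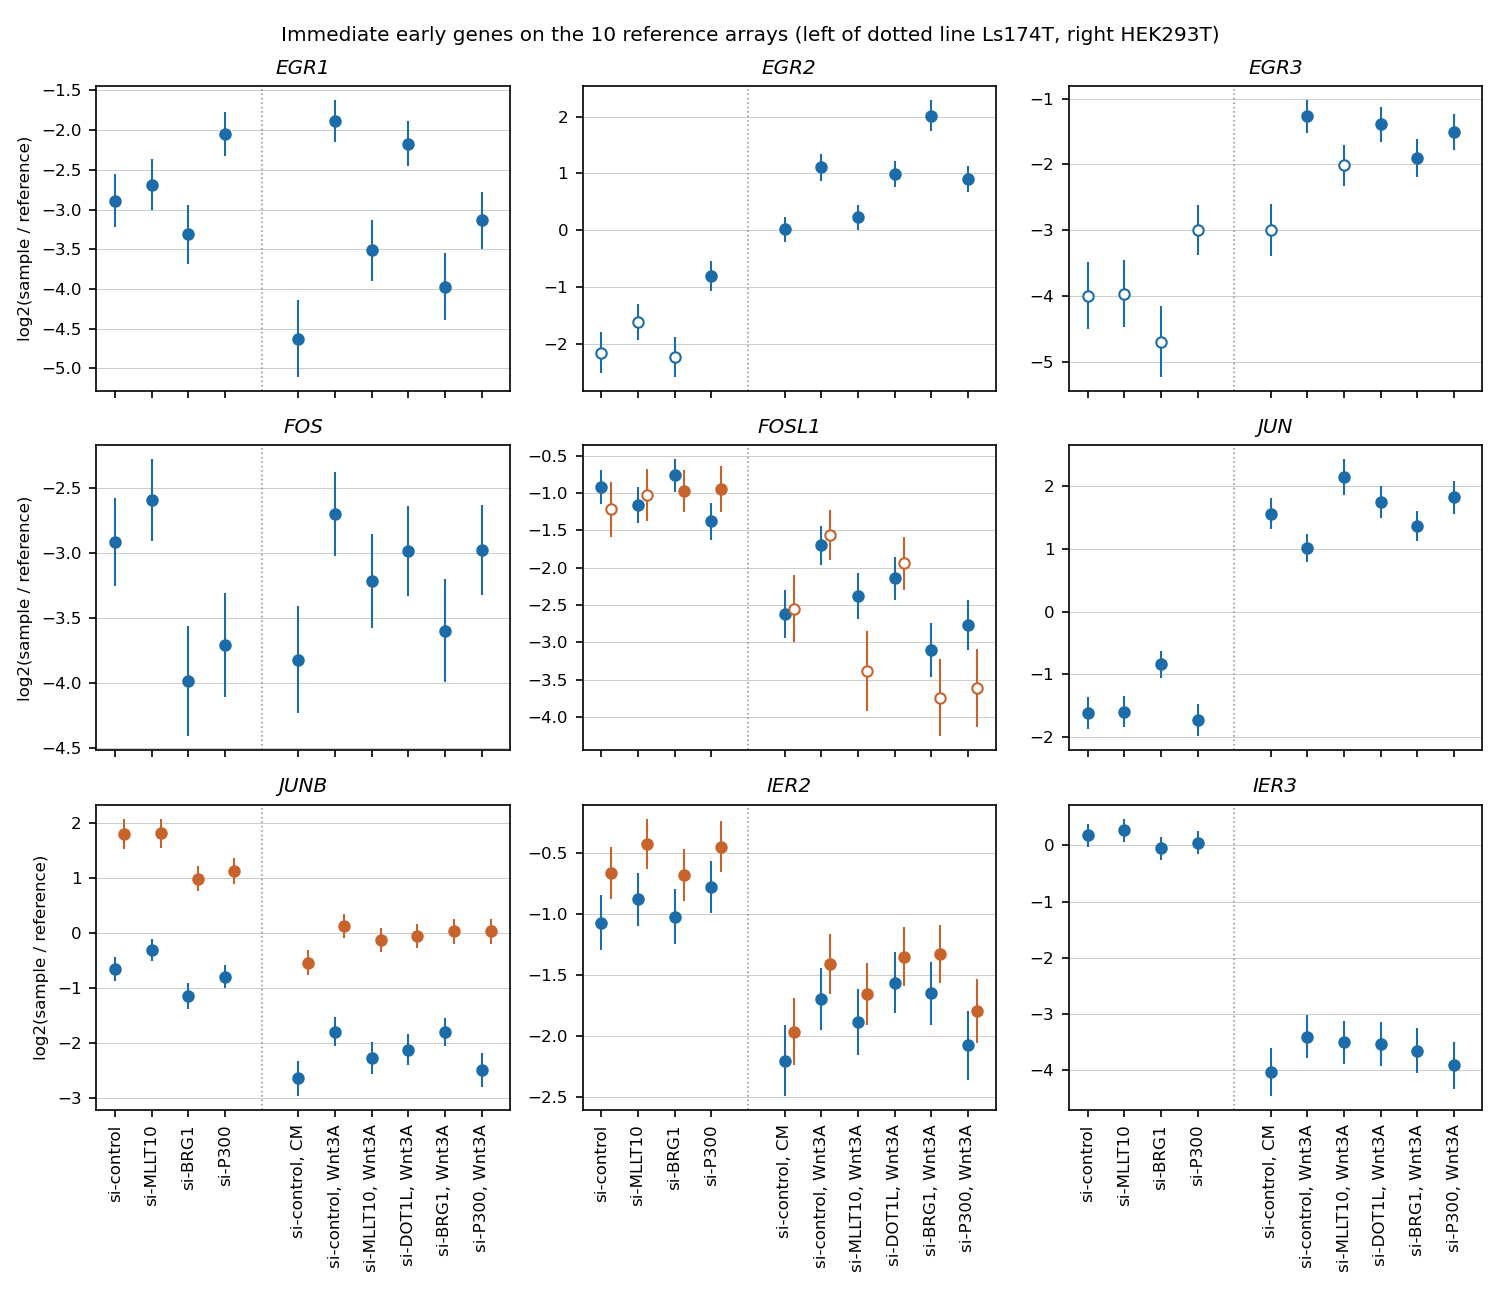
Level of each gene, as log2 of sample over reference signal, on the 4 Ls174T and 6 HEK293T reference arrays. Points are single arrays, bars are the program error, open points mark sample channels not well above background, and orange marks the second probe of FOSL1, JUNB, and IER2. Among the HEK293T arrays, EGR1 is lowest in control medium at -4.63 and highest with Wnt3A at -1.89, while JUN is lowest with Wnt3A at 1.02.

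FOS, the inducible partner of JUN proteins, had levels of -3.82 in control medium, -3.60 with si-BRG1, -3.22 with si-MLLT10, -2.99 with si-DOT1L, -2.98 with si-P300, and -2.70 in si-control with Wnt3A. No neighbors in this order differed beyond the error, but its ends did, with a Wnt3A difference of 1.12 ± 0.52, or 2.18-fold. FOSL1 encodes FRA-1, a FOS relative without a transactivation domain of the FOS kind. On its brighter probe, the levels were -3.10 with si-BRG1, -2.77 with si-P300, -2.62 in control medium, -2.37 with si-MLLT10, -2.14 with si-DOT1L, and -1.70 in si-control with Wnt3A. FOSL1 was 0.92 ± 0.42 higher with Wnt3A. Its other probe was not well above background on any HEK293T array.

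JUN, the core AP-1 subunit, was read on 10 spots of each array less any flagged as outliers, leaving 8 to 10, which had an SD of 0.0117 to 0.0429 in log2 ratio over the HEK293T arrays. Its levels were 1.02 in si-control with Wnt3A, 1.37 with si-BRG1, 1.56 in control medium, 1.75 with si-DOT1L, 1.83 with si-P300, and 2.15 with si-MLLT10. The si-control Wnt3A array was the lowest of the 6, by more than the program error from its nearest neighbor. The Wnt3A difference of JUN was -0.54 ± 0.34, which did not pass the threshold. JUNB, an AP-1 subunit that often acts against JUN, was 0.84 higher with Wnt3A on the brighter probe and 0.67 on the other, with a mean of 0.76 ± 0.37. IER3 was 0.62 ± 0.57 higher, little more than its error, and IER2 was 0.53 ± 0.38 higher, short of the threshold.

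**Figure D2:**
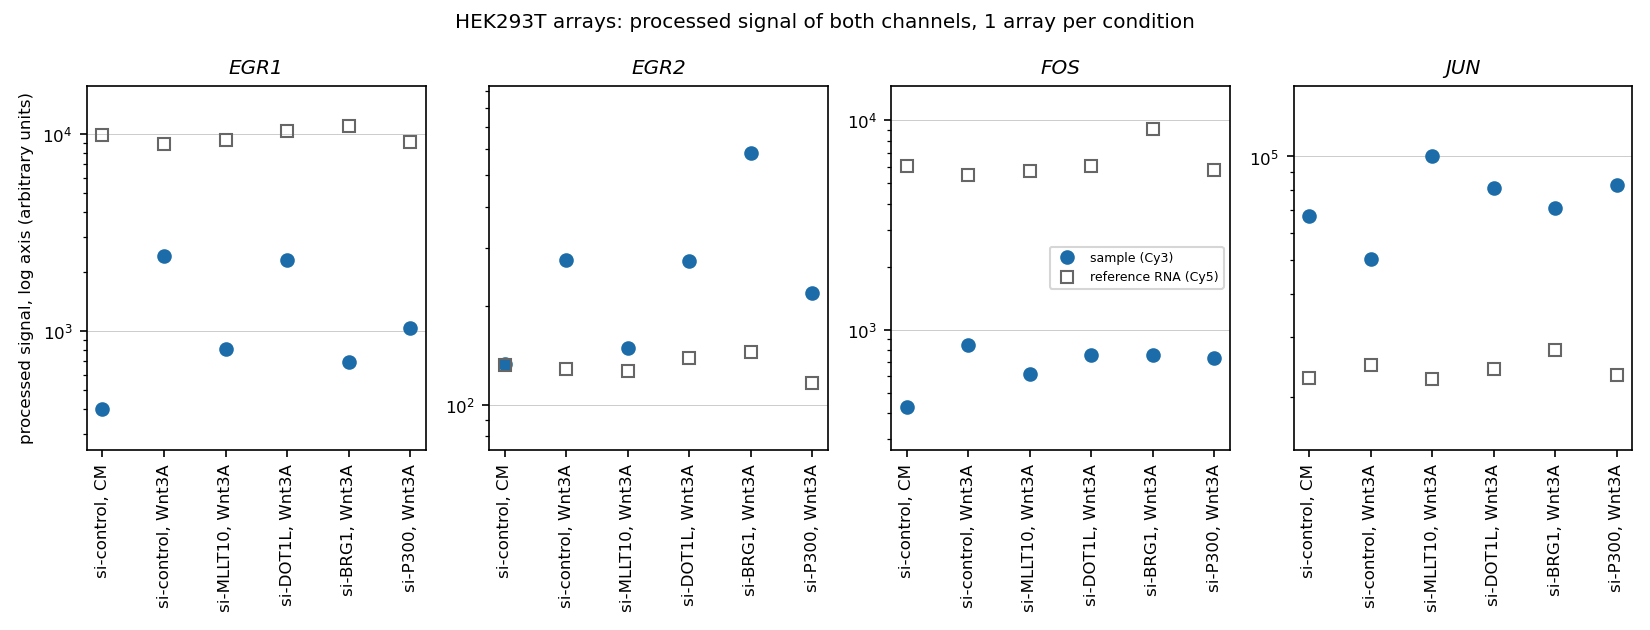
Processed signal of EGR1, EGR2, FOS, and JUN on the 6 HEK293T arrays on log axes, with filled circles for the sample channel and open squares for the reference RNA channel. The EGR1 sample signal spans 400 to 2396, and the FOS reference signal stands at 9122 on the si-BRG1 array.

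The knockdowns with Wnt3A were then compared with the si-control Wnt3A array. These 4 comparisons and the Wnt3A difference above all share that array. After si-MLLT10, EGR1, EGR2, EGR3, and FOSL1 were lower past 1.5-fold, 4 of 9 genes against 3.42% of all genes, and JUN was higher, 1 of 9 against 2.44%. After si-DOT1L, 0 of 9 genes were lower, against 3.33% of all genes, and JUN alone was higher, against 1.56%. After si-BRG1, EGR1, EGR3, FOS, and FOSL1 were lower, 4 of 9 against 12.7%, and EGR2 was higher, 1 of 9 against 8.09%. After si-P300, EGR1 and FOSL1 were lower, 2 of 9 against 7.23%, and JUN was higher, 1 of 9 against 3.35%.

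EGR1 differed widely among the 4 knockdowns. It was -1.62 ± 0.47 after si-MLLT10, a 3.08-fold lower ratio, and -2.08 ± 0.50 after si-BRG1, 4.24-fold lower. It was -1.25 ± 0.45 after si-P300, 2.38-fold lower, and -0.28 ± 0.39 after si-DOT1L, within the error. On its brighter probe FOSL1 was -1.40 ± 0.45 after si-BRG1, -1.07 ± 0.43 after si-P300, -0.67 ± 0.40 after si-MLLT10, and -0.44 ± 0.39 after si-DOT1L. FOSL1 was near background, and with normexp on replaced backgrounds its values after si-MLLT10 and si-P300 were -0.18 and -0.41, short of the threshold. In that setting EGR1 and JUN were the 2 genes past the threshold after si-MLLT10.

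EGR2 did not follow EGR1 after si-BRG1. It was 0.91 ± 0.36 higher, or 1.88-fold, on the array where EGR1 was lowest of the knockdowns. After si-MLLT10, EGR2 was lower, at -0.88 ± 0.32, and after si-DOT1L and si-P300 it lay within the error, at -0.12 ± 0.33 and -0.20 ± 0.33. EGR3 was -0.74 ± 0.40 after si-MLLT10, where its sample channel was not well above background, and -0.64 ± 0.38 after si-BRG1, where both arrays were above background. With the normexp correction on backgrounds as scanned, EGR2 was -0.067, EGR3 0.72, and FOSL1 0.73 after si-BRG1. When the outlying backgrounds were replaced, EGR2 was 0.74, EGR3 was -0.07, and FOSL1 was -0.66.

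FOS was -0.90 ± 0.51 after si-BRG1. Its sample signal there, 753, was near the 733 of si-P300 and the 760 of si-DOT1L, while its reference signal was 9122, against 5510 to 6046 on the other 5 HEK293T arrays. From the sample channel alone, scaled to the 75th percentile of each array, the FOS difference was -0.42 and did not pass the threshold. The other FOS differences were -0.52 ± 0.49 after si-MLLT10, -0.29 ± 0.47 after si-DOT1L, and -0.28 ± 0.47 after si-P300.

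JUN was higher in all 4 knockdowns than in the si-control Wnt3A sample. It was 1.13 ± 0.36 after si-MLLT10, or 2.19-fold, 0.81 ± 0.35 after si-P300, 0.73 ± 0.34 after si-DOT1L, and 0.35 ± 0.33 after si-BRG1. JUNB ran from -0.40 to -0.05, IER2 from -0.38 to 0.10, and IER3 from -0.51 to -0.10, and none of these 3 genes passed the threshold in any of the 4 knockdowns.

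**Figure D3:**
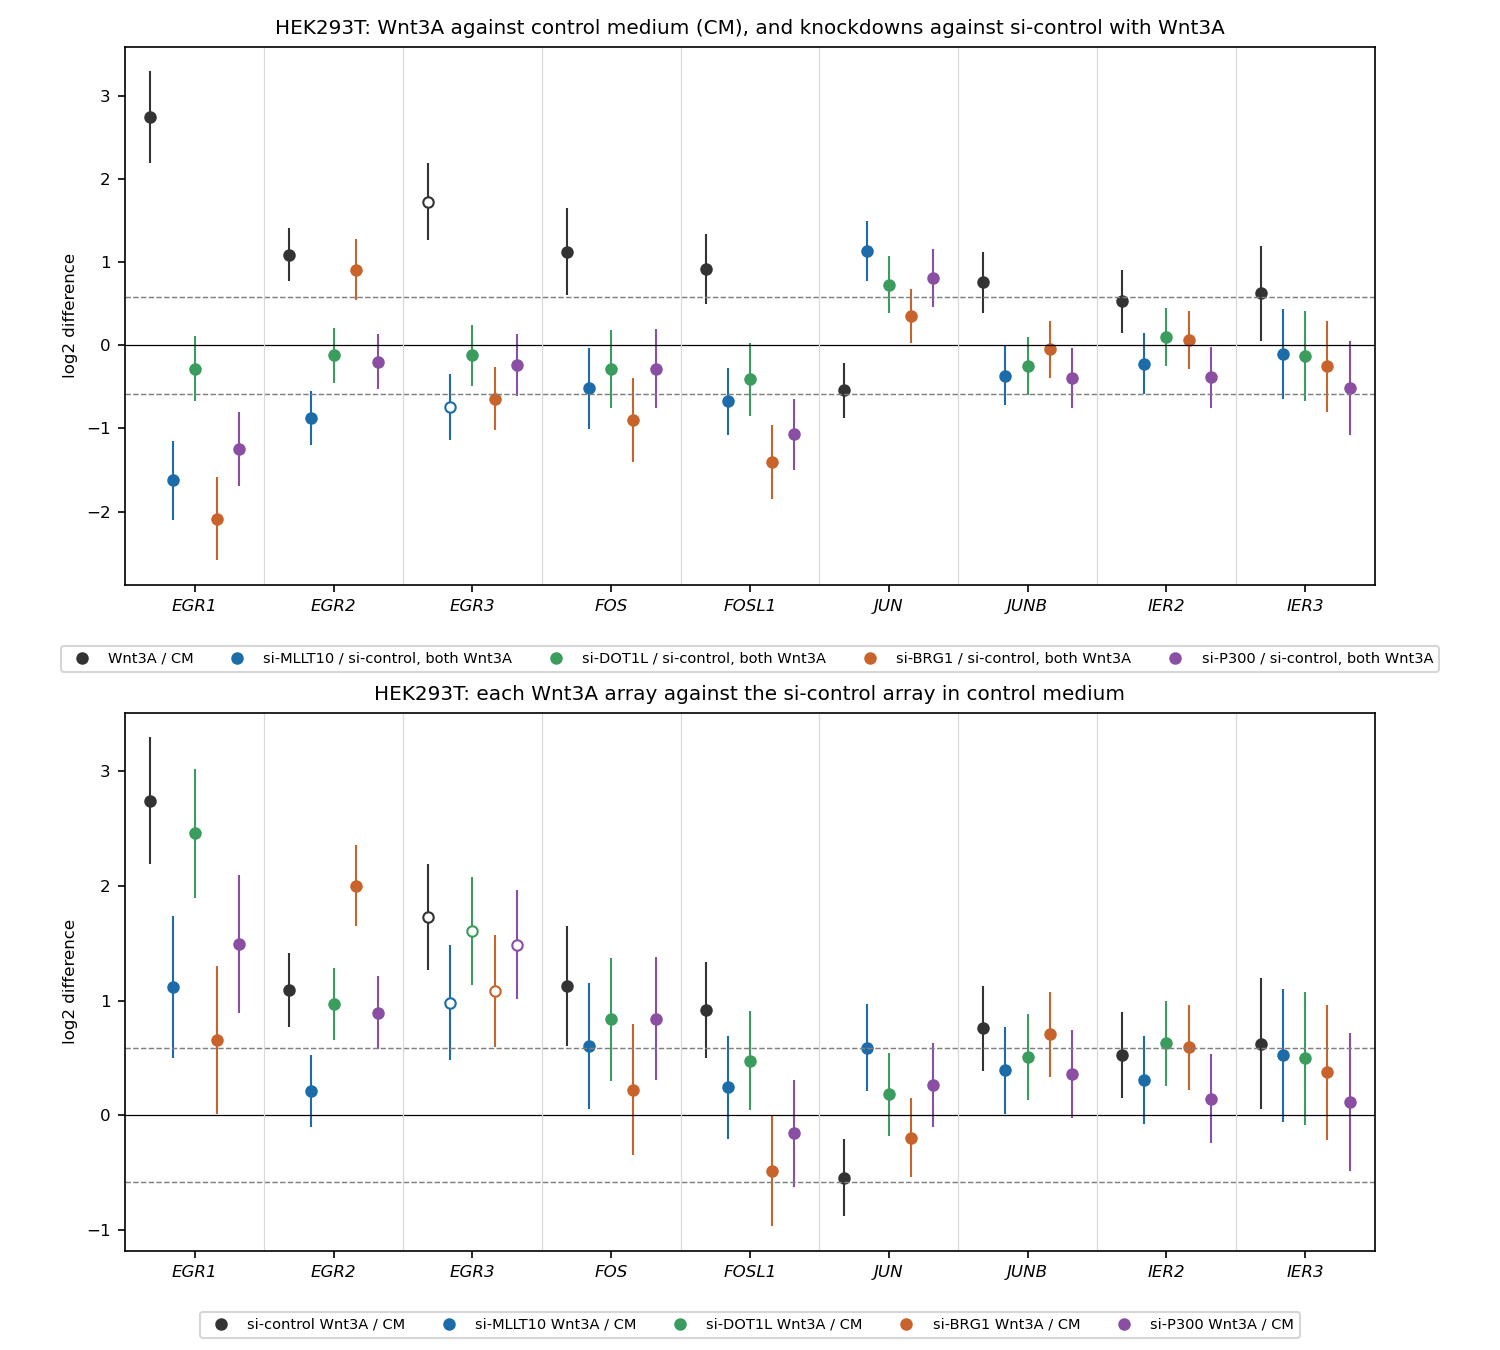
Log2 differences of the 9 measured genes in HEK293T cells, with the program error as bars and the 1.5-fold threshold as dashed lines. The upper panel shows Wnt3A against control medium and each knockdown against si-control with Wnt3A, the lower panel shows every Wnt3A array against control medium, and open points mark genes with a sample channel not well above background on at least 1 side. EGR1 is 2.74 with Wnt3A and -2.08 after si-BRG1, and JUN lies on the opposite side of 0 from EGR1 in the upper panel.

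Set against the control medium array, which the si-control Wnt3A array does not enter, the knockdown samples lay at different heights. The si-MLLT10 and si-DOT1L arrays were on the same slide as control medium. EGR1 was 2.46 ± 0.56 above control medium in si-DOT1L cells and 1.12 ± 0.62 in si-MLLT10 cells, beside 2.74 in si-control cells. On the other slide, EGR1 was 1.49 ± 0.60 in si-P300 cells and 0.66 ± 0.64 in si-BRG1 cells. EGR2 was 2.00 ± 0.35 in si-BRG1 cells, 0.97 ± 0.32 in si-DOT1L cells, 0.89 ± 0.32 in si-P300 cells, and 0.21 ± 0.31 in si-MLLT10 cells.

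FOS was above control medium by 0.84 ± 0.54 in both si-DOT1L and si-P300 cells, by 0.61 ± 0.55 in si-MLLT10 cells, and by 0.22 ± 0.57 in si-BRG1 cells. EGR3 was at least 1.92-fold higher in si-DOT1L, 1.69-fold in si-BRG1, and 2.20-fold in si-P300 cells, and no fold is given for si-MLLT10, where neither array was above background. JUN was 0.59 ± 0.38 in si-MLLT10, 0.26 ± 0.36 in si-P300, 0.18 ± 0.36 in si-DOT1L, and -0.19 ± 0.35 in si-BRG1 cells, so that only si-MLLT10 reached 1.5-fold, and just so. In all, 4 of 9 genes were past 1.5-fold higher in si-MLLT10 cells, against 3.75% of all genes, with EGR3 counted from its measured ratio. The counts were 5 of 9 in si-DOT1L cells against 2.93%, 5 of 9 in si-BRG1 cells against 6.13%, and 4 of 9 in si-P300 cells against 4.24%, and 0 of 9 genes were lower in each, against 2.77%, 2.41%, 7.84%, and 5.41%. Under normexp with backgrounds as scanned, EGR1 was below control medium in si-MLLT10, si-BRG1, and si-P300 cells, and EGR3 and FOS in all 4 knockdowns. With the outlying backgrounds replaced, EGR1 was 1.03, 0.56, and 1.28 above it in those 3.

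Arrays that shared a slide allowed a direct comparison of coactivators, which was not repeated under the alternatives given below. EGR1, EGR2, and EGR3 were lower in si-MLLT10 than in si-DOT1L cells, 3 of 9 genes against 1.3% of all genes, with EGR3 counted from its measured ratio. The differences were -1.34 ± 0.48 for EGR1 and -0.76 ± 0.32 for EGR2. EGR3 measured -0.62 ± 0.41, but its sample channel was not well above background in si-MLLT10 cells. From the scaled sample channels, with its own dim signal used, EGR3 was 1.43-fold lower, short of the 1.5-fold threshold. FOS, at -0.23 ± 0.50, and JUN, at 0.40 ± 0.39, did not pass the threshold. Between si-BRG1 and si-P300 cells, the ratios of EGR1 and FOS were lower in si-BRG1, 2 of 9 genes against 10.0%, at -0.84 ± 0.55 and -0.62 ± 0.52. The FOS sample signals were close, at 753 with si-BRG1 and 733 with si-P300, while the reference signals were 9122 and 5787. EGR2 was 1.11 ± 0.36 higher in si-BRG1, 1 of 9 genes against 8.26%.

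In Ls174T cells, EGR1 and FOS RNA were past 2-fold higher after depletion of β-catenin, while JUNB and IER2 were higher and JUN lower by less than 2-fold. The pair of arrays carried the same RNA with the dyes exchanged and counts as 1 sample. EGR2, EGR3, and FOSL1 were not well-measured on both arrays, so 6 of the 9 genes were compared. The direct log2 ratios of si-b-catenin over si-control were 1.85 and 2.00 for EGR1 and 2.21 and 1.42 for FOS. With means of 1.93 ± 0.20, or 3.80-fold, and 1.81 ± 0.21, or 3.52-fold, these 2 genes were past the 2-fold threshold that the study used in Ls174T cells, against 4.58% of 9436 genes, and 0 were lower, against 1.21%. The EGR1 sample signals were 676 and 387 with si-b-catenin and 187 and 96.5 with si-control.

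JUN was -0.69 and -0.67 on the arrays of the pair, a mean of -0.68 ± 0.15, short of 2-fold but more than 4 program errors from 0. JUNB was 0.80 ± 0.18, with 1.00 on the brighter probe and 0.61 on the other, so that the brighter probe alone passed 2-fold. IER2 was 0.75 ± 0.15, and IER3, at -0.08 ± 0.14, was within its error. Of 9 colorectal markers measured in the same samples, 6 were past 2-fold higher after si-b-catenin and 0 lower, against 4.58% and 1.21% of all genes. Their median was 1.03. MUC2 at 1.03 and GPA33 at 1.02 just passed, and VIL1 at 0.41, CDX1 at 0.18, and EPCAM at 0.11 did not. KRT20, a keratin of differentiated enterocytes, was at 4.78, LGALS4 at 3.29, CDH17 at 2.08, and TFF3, a goblet cell peptide, at 1.75, and their part in the EGR1 and FOS values was not tested. EGR1 and FOS were thus higher both with Wnt3A in HEK293T cells and after β-catenin depletion in Ls174T cells, and JUN was lower in both, though in HEK293T cells JUN did not pass the threshold and FOS turned lower under normexp with backgrounds as scanned.

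**Figure D4:**
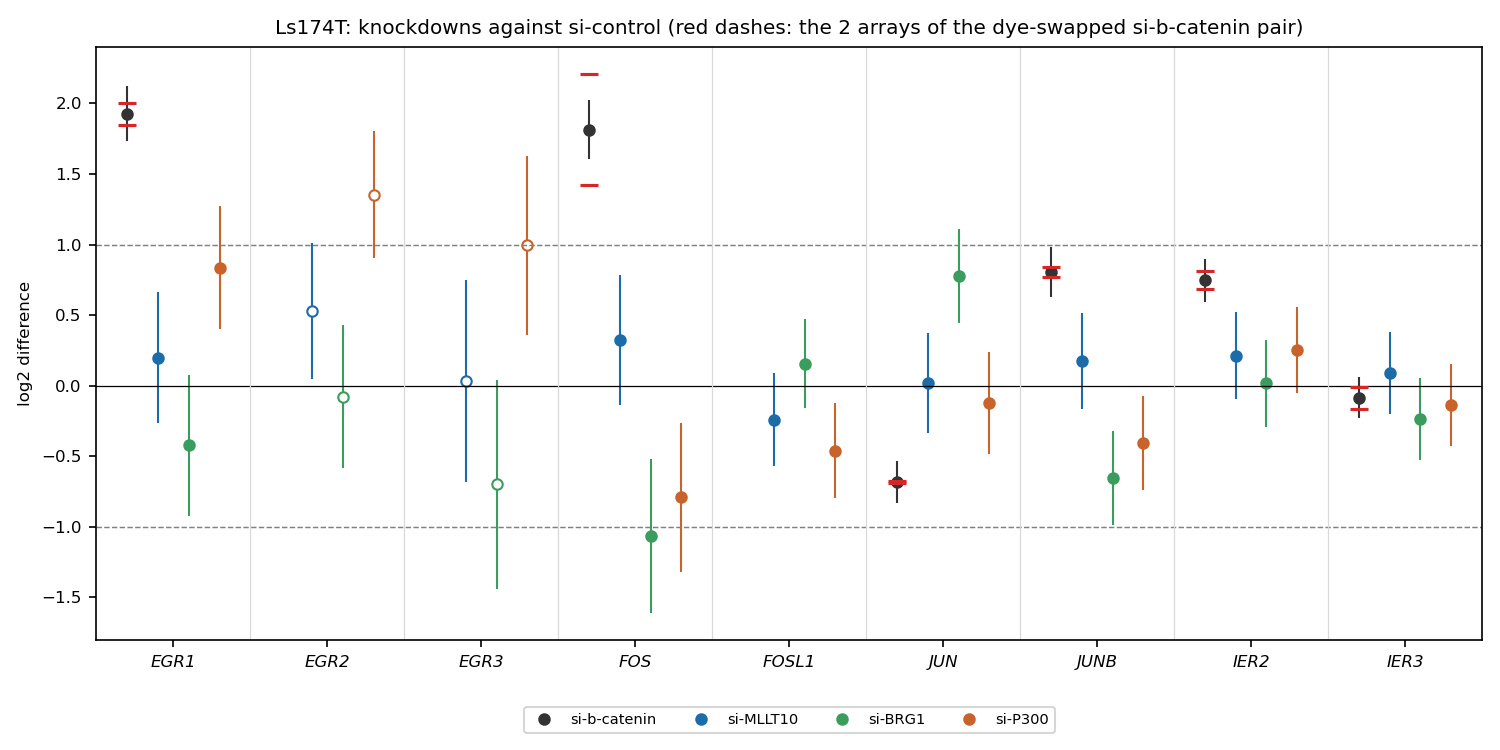
Log2 differences of the knockdowns against si-control in Ls174T cells, with the program error as bars, the 2-fold threshold as dashed lines, red dashes for the arrays of the si-b-catenin pair (mean over probes), and open points where the sample channel was not well above background on at least 1 side. EGR1 and FOS stand at 1.93 and 1.81 after si-b-catenin, and FOS at -1.07 after si-BRG1.

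The other 3 Ls174T knockdowns were compared with the same si-control array, and few of these genes passed 2-fold. The EGR1 levels were -3.31 with si-BRG1, -2.89 with si-control, -2.69 with si-MLLT10, and -2.05 with si-P300. The FOS levels were -3.99 with si-BRG1, -3.71 with si-P300, -2.92 with si-control, and -2.60 with si-MLLT10. The FOS levels with si-BRG1 and si-P300 lay below those with si-control and si-MLLT10 by more than the error. The former arrays were on slide 3 and the latter on slide 2, so slide and condition cannot be told apart in this split. FOS was -1.07 ± 0.55 after si-BRG1, the 1 gene of 9 that was lower, against 1.25% of all genes, and -0.79 ± 0.53 after si-P300. Under normexp with backgrounds as scanned, FOS was 0.29 after si-BRG1, and with the outlying backgrounds replaced it was -0.97 and 0 of 9 genes passed 2-fold.

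JUN levels were -1.74 with si-P300, -1.62 with si-control, -1.60 with si-MLLT10, and -0.84 with si-BRG1. JUN was 0.78 ± 0.33 after si-BRG1, short of 2-fold. EGR1 was 0.84 ± 0.44 after si-P300 and -0.42 ± 0.50 after si-BRG1. EGR2 was above background only with si-P300, where it was at least 1.55-fold higher than in si-control on the program's background correction. Its measured difference of 1.35 ± 0.45 made EGR2 the 1 gene of 9 past 2-fold higher, against 3.72%, and it was 0.11 under normexp with replaced backgrounds. EGR3 was not well above background on any Ls174T array, and no fold is given. After si-MLLT10, 0 of 9 genes passed 2-fold in either direction, against 1.39% of all genes, and the 7 genes above background lay between -0.24 and 0.32.

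The si-BRG1 and si-P300 arrays in Ls174T shared a slide, apart from si-control. EGR1 was -1.26 ± 0.46 in si-BRG1 relative to si-P300, and EGR2, above background with si-P300 alone, was -1.43 ± 0.44. With EGR3, which was not above background on either array, 3 of 9 genes were past 2-fold lower, against 0.715% of all genes. JUN was 0.90 ± 0.34 higher in si-BRG1. In HEK293T cells, the same pair of knockdowns gave the opposite sign for EGR2 and for JUN, at 1.11 and -0.46, and the difference between the lines was not tested.

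The lines themselves differed widely, as 27.3% of all genes were past 1.5-fold higher and 25.0% lower in unstimulated HEK293T than in si-control Ls174T cells. JUN was 3.18 ± 0.35 higher in HEK293T, or 9.08-fold, and EGR2 at least 3.40-fold higher. IER3, an NF-κB and p53 target, was at -4.21 on the log2 scale, or 18.5-fold lower, with JUNB at -2.16, EGR1 at -1.74, FOSL1 at -1.70, IER2 at -1.21, and FOS at -0.90. Within the lines, the IER3 level ran from -0.05 to 0.27 on the Ls174T arrays and from -4.02 to -3.40 on the HEK293T arrays.

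Genes that work with these factors were counted from lists of related genes. Of 10 MAPK feedback genes, which encode phosphatases and Sprouty-type inhibitors induced by the cascade, 5 were past 1.5-fold higher with Wnt3A and 0 lower, against 3.79% and 1.86% of all genes. DUSP6, an ERK phosphatase, was 1.05 ± 0.74 higher and SPRY4 1.04 ± 0.47, and the lowest were SPRY1 at 0.10 and DUSP1 at 0.15. The list's median was 0.47. Against si-control with Wnt3A, 3 of the 10 were lower after si-MLLT10, 0 after si-DOT1L, 4 after si-BRG1, and 3 after si-P300. The shares of all genes were 3.42%, 3.33%, 12.7%, and 7.23%. DUSP1 alone was higher, after si-BRG1, at 0.68, 1 of 10 against 8.09% of all genes. DUSP6 was -1.12 ± 0.75 after si-MLLT10 and -1.27 ± 0.76 after si-P300.

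Of 19 other immediate early genes measured, only FOSB, a FOS paralog, passed 1.5-fold with Wnt3A, at 0.83 ± 0.30, a share near the 3.79% of all genes, with ARC next at 0.57 and KLF2 and KLF6 lowest at -0.38 and -0.25. After si-MLLT10, FOSB and NR4A1 were lower, at -0.61 and -0.60, 2 of 19 against 3.42% of all genes. KLF2 was higher, at 0.63, 1 of 19 against 2.44%. After si-BRG1, FOSB was lower, at -0.59, 1 of 19 against 12.7% of all genes. NR4A2 and BTG2 were higher, at 1.23 and 0.83, 2 of 19 against 8.09%. These si-BRG1 shares were near or below those of all genes. After si-P300, 5 of the 19 were lower, against 7.23% of all genes, and 0 were higher: GADD45A at -0.96, CTGF and PHLDA1 at -0.67, NR4A1 at -0.64, and FOSB at -0.60. After si-DOT1L, 0 of 19 passed the threshold, where 3.33% of all genes were lower and 1.56% higher. After si-b-catenin in Ls174T cells, 4 of 15 such genes passed 2-fold, all higher, against 4.58% of all genes: KLF6 at 1.92, KLF4, a factor of differentiating colon epithelium, at 1.66, KLF2 at 1.40, and ZFP36, which destabilizes immediate early mRNAs, at 1.08. The lowest were ATF3 at -0.92 and PHLDA1 at -0.80. Of 7 MAPK feedback genes measured there, 1 was past 2-fold higher and 1 lower, against 4.58% and 1.21% of all genes. These were SPRY2 at 1.24 and DUSP2 at -1.01, and SPRED1 and DUSP1 were 0.91 and -0.36.

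Of 7 AP-1 partners measured with Wnt3A, 2 were past 1.5-fold higher and 0 lower, against 3.79% and 1.86% of all genes. These were MAFF at 0.87 and BATF3 at 0.64, and the lowest were ATF2 at -0.41 and BATF at 0.05. Against si-control with Wnt3A, JDP2 at -0.75 and MAFF at -0.61 were lower after si-P300, 2 of 7 against 7.23% of all genes. None passed after the other knockdowns. After si-b-catenin 0 of 5 passed 2-fold, where 4.58% of all genes were higher and 1.21% lower. MAFF at 0.64 and MAFK at 0.20 were the highest there, and JDP2 at -0.44 and ATF2 at -0.17 the lowest. None of the serum response factor and ETS regulators measured, 4 with Wnt3A and 3 after si-b-catenin, passed the threshold. With Wnt3A, MKL1 and SRF were highest at 0.25 and 0.17, and MKL2 and ELK1 lowest at -0.26 and -0.01, and after si-b-catenin MKL1, SRF, and MKL2 were at -0.13, -0.16, and -0.28. The EGR corepressors NAB1 and NAB2, themselves tied to EGR activity, were -0.16 and 0.26 with Wnt3A and 0.73 and -0.09 after si-b-catenin.

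The non-member genes whose log2 ratio was most like that of EGR1 over the 6 HEK293T arrays were ETV1, with a Pearson r of 0.987, WNT11 at 0.982, ETV5 at 0.976, LAMA1 at 0.942, and MAGEL2 at 0.938, among 2157 probes. ETV1 and ETV5 are ETS-family factors known as ERK-responsive genes, and WNT11 is a Wnt ligand. FOS had r of 0.944 with EGR1 over the same arrays, FOSL1 0.770, EGR2 0.260, and JUN -0.261. These values describe 6 points that share a reference RNA, and the non-member genes were picked as the highest among 2157 probes. How high r runs by chance in such a pick was not tested. In Ls174T cells, EGR3 had the largest range but was not above background, and no likeness is given.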

How the data were processed

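Total RNA from Ls174T and HEK293T cells was labeled by the authors with Cy3 or Cy5 and hybridized to Agilent 4x44K whole human genome arrays. The deposited intensities are the median and background signals per spot and the processed signals, already corrected by the program for background and dye. The deposited log10 ratios are of processed Cy5 over Cy3 signal. Feature Extraction is version 10.5.1.1 in the file headers and 8.5.1.1 in the submitters' processing notes. The value table that the authors deposited holds the same log10 ratios, reference over sample on the 10 reference arrays, within 1.56e-05 in log2. Its column medians lay between 0 and 0.125 in log2, and no centring was found.

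From these files, every ratio was put on the log2 scale with the sample above the line, over reference RNA or, for si-b-catenin, over si-control. Control spots and outlier features were left out. Spots were averaged per probe and well-measured probes per gene. RefSeq accessions matched a gene symbol for 27607 of 28546 features with one (96.7%). All genes were processed together. As in the study's methods, genes counted as past the threshold at 1.5-fold for HEK293T and 2-fold for Ls174T. Errors combine those of the arrays compared, and precision is limited by 1 biological sample per condition. Both normexp settings and the scaling for the bounds used limma 3.58.1 in R 4.3.3, and the rest used Python 3.11.15. The scripts were tested on simulated data. Alternatives were normexp background correction (offset 50) with loess, the same with outlying backgrounds replaced, the sample channel alone, median centring, 2 other filters, the value table, the brightest probe, and each array of the pair alone. Genes were named by list: all members, the 2 highest and 2 lowest of each related list with Wnt3A and after si-b-catenin, siRNA targets, and the 5 genes most like the member with the largest range. Other list genes named were past the threshold, except for VIL1, CDX1, and EPCAM, and were chosen after their values were seen. The members and lists were chosen with earlier results of these data known. EGR3, FOSL1, and IER3 had no promoter window in the set used, so their promoters were not searched.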

Additional observations from a re-analysis of the deposited data

Results flagged for a closer look

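EGR1 after si-P300 had opposite signs in the lines. It was 0.84 in Ls174T cells against si-control and -1.25 in HEK293T cells against si-control with Wnt3A, on the log2 scale, with program errors of 0.44 and 0.45. Only the HEK293T value was past its threshold. Each line had 1 sample per condition, and the HEK293T cells alone were given Wnt3A. EP300 itself was at -0.96 after si-P300 in Ls174T cells and at -2.66 in HEK293T cells. The difference was not tested. Under the alternatives, the Ls174T value ran from 0.74 to 1.02 and the HEK293T value from -1.26 to -1.21.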

How the results depend on the processing

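No paired analysis was possible because each condition had 1 biological sample and the arrays of the pair hold the same RNA. Values past the threshold that changed sign are called reversed here. Median centring, the value table, the brightest probe, and the filter on both channels reversed 0 values. With normexp on backgrounds as scanned, 18 of 114 gene values reversed and 39 changed sign at any size. With outlying backgrounds replaced, 0 of 114 reversed and 5 changed sign at any size. The reversed log2 values were 0.29 for FOS after si-BRG1 in Ls174T cells; -0.86, -0.80, -1.13, and -0.28 for EGR3, FOS, FOSL1, and IER3 with Wnt3A; -0.067, 0.72, and 0.73 for EGR2, EGR3, and FOSL1 after si-BRG1 against si-control with Wnt3A. Against control medium they were -0.94, -0.90, and -1.24 for EGR1, EGR3, and FOS after si-MLLT10, -0.73 and -1.04 for EGR3 and FOS after si-DOT1L, -0.64 and -0.14 for EGR1 and EGR3 after si-BRG1, and -0.70, -0.72, and -1.09 for EGR1, EGR3, and FOS after si-P300. This setting moved the median of all genes with Wnt3A to -0.13.

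Under the same setting, counts past the threshold moved from 7 to 4 with Wnt3A (all 4 lower), from 5 to 2 after si-MLLT10 and to 3 after si-BRG1 against si-control with Wnt3A, and from 5 to 3 after si-DOT1L and to 2 after si-BRG1 against control medium, where each counted gene was lower. The 4 for si-MLLT10 against control medium stayed 4, but lower, and the 4 for si-P300 became 5, all lower. In Ls174T cells the 1 gene lower after si-BRG1 gave way to 1 gene higher, and after si-P300 the 1 gene was EGR1 at 1.02 in place of EGR2. With outlying backgrounds replaced, counts were 0 after si-BRG1 and si-P300 in Ls174T cells, 2 after si-MLLT10 against either HEK293T control, and 2 after si-BRG1 against control medium. From the sample channel alone they were 2 after si-P300 in Ls174T cells, and 2 after si-DOT1L and 6 after si-P300 against si-control with Wnt3A. With both channels above background, the si-P300 count in Ls174T cells was 0. The cause of the other moves was not tested. Each array of the pair alone gave 2 genes, with FOS at 1.42 and 2.21. The pair could not be read from the sample channel alone. EGR3, FOSL1, and Ls174T EGR2 are limited by signal near background.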
